A study of Mus musculus with 8 samples.

Results

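The 7 genes described here encode the main histone H3 lysine 4 (H3K4) methyltransferase family of the mouse: Kmt2a (MLL1), Kmt2b (MLL2), Kmt2c (MLL3), Kmt2d (MLL4), Kmt2e (MLL5), Setd1a and Setd1b. They were selected by gene symbol, as a list drawn up with earlier results of these data known, and are 7 of the 35976 symbols in the count table. All 7 were among the 16847 genes that passed the filter on low counts. The RNA came from full-grown oocytes of mouse ovaries, the stage at which growth is complete and transcripts for the early embryo are in store, in 4 groups of 2 libraries. These were libraries labelled as a double knockout (DKO) of H2A.Z.1 and H2A.Z.2, their H2A.Z controls, labelled wild type, Mll2 KO, and Mll2 WT, also labelled wild type. Each library pooled about 20 oocytes, and 200 pg of SMART-Seq cDNA went into each library preparation. Mouse age, strain, the deleted exons and the promoter of any Cre are given by no source used here. The labels do not say that the libraries of a group came from separate mice, so the p-values reflect no more than the spread among these libraries, which may be technical.

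H3K4 methyltransferases work in COMPASS complexes. A catalytic SET-domain subunit is joined by the shared core of WDR5, RBBP5, ASH2L and DPY30, and partners particular to each branch carry the complex to chromatin. SETD1A and SETD1B lay down most trimethylated H3K4 (H3K4me3) at active promoters, MLL1 and MLL2 act at CpG-rich and developmental promoters, and MLL3 and MLL4 monomethylate H3K4 at enhancers. MLL5 carries a SET domain for which no methyltransferase activity on H3K4 is established, and is counted here as a family member. In mouse oocytes MLL2 is known for the broad H3K4me3 that builds up outside promoters during growth. The name Mll2 has been used for both Kmt2b and Kmt2d, so both were read in every library.

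CpG content is the feature that the CXXC domains of MLL1, MLL2 and the SETD1 partner CFP1 read, since they bind unmethylated CpG. The RefSeq promoter table (GRCm38.p6), whose windows run 250 bases before to 50 bases after the start site, held Kmt2a, Kmt2c, Kmt2d and Setd1a, and its median window held 7 CpG. The Kmt2c window held 56 CpG, a number reached by 0.195% of 32851 windows, and Kmt2a held 36 CpG, reached by 6.23%. Setd1a held 35 CpG, reached by 6.95% of windows, and Kmt2d held 27 CpG, reached by 15.5%. The bases upstream of the outermost start of the gene itself, in RefSeq and GENCODE M21, are printed for Kmt2c and Kmt2a. These genes had the highest and the lowest RNA level of the family. Transcripts of other genes were not looked for in the printed stretches. The stretches lie on the minus strand at chr5:25498856-25499033 (178 bases, 32 CpG) and chr9:44881353-44881539 (187 bases, 23 CpG) of GRCm38.p6. They are written 5′ to 3′ with each CG, the only motif searched and the same on both strands, in capitals.
Kmt2c: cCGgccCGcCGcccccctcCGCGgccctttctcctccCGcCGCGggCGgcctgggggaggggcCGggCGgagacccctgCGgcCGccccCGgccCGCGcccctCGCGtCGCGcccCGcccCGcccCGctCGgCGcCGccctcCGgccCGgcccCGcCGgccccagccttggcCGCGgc
Kmt2a: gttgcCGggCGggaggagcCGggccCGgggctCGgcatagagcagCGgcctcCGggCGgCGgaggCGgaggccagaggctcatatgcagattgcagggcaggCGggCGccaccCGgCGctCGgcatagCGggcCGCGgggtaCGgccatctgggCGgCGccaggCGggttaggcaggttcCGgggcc
Both stretches are dense in CG, and whether CG content goes with RNA level was not tested. At least 1 CG was found in 94.6% of all windows, and its presence in a window says nothing about binding in these oocytes.

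The libraries held 20309233 to 30087863 counts. The labels were checked against the targeted genes first. H2afz, which encodes H2A.Z.1, stood at 322 and 317 normalised counts (CPM, scaled to library size) in the libraries labelled DKO, against 23.9 and 29.97 CPM in H2A.Z controls. H2afv, which encodes H2A.Z.2, stood at 285 and 294 CPM in the libraries labelled DKO, against 108 and 107 CPM in H2A.Z controls. In the Mll2 line H2afz stood at 19.4 and 14.99 CPM in Mll2 KO and 7.04 and 7.09 CPM in Mll2 WT, and H2afv at 93.7 and 106.1 CPM in Mll2 KO and 86.8 and 88.2 CPM in Mll2 WT, so the H2A.Z controls were the nearer of the H2A.Z groups to that line. Both genes go against the DKO label. Whether the labels or columns of that line are exchanged was not tested, every direction given for it is that of the libraries as labelled, and results that set the lines against each other are also given with the labels exchanged. Of 12 oocyte markers, summed levels were 30337 to 32733 CPM in the libraries labelled DKO and 30160 to 31081 CPM in H2A.Z controls, and 21322 to 23494 CPM in Mll2 KO and 24289 to 28959 CPM in Mll2 WT. Summed granulosa and cumulus markers (17 genes) were far lower, at 363 to 380 CPM in the libraries labelled DKO, 314 to 332 CPM in H2A.Z controls, 215 to 233 CPM in Mll2 KO and 250 to 261 CPM in Mll2 WT. The sum followed Esr2, which led that list in every group (128 and 109 CPM in Mll2 KO, against 168 and 155 CPM in Mll2 WT). Single markers moved otherwise. Of the 13 tested, the libraries labelled DKO had 4 called higher and 2 lower. Mll2 KO had 5 called higher and 3 lower, with a median log2 fold change of 1.64 against 0.02 over all genes. By the same threshold 19.4% of all tested genes rose under the DKO label and 11.5% fell. Under Mll2 KO 14.4% of them rose and 16.2% fell. The granulosa receptor gene Fshr, named after its values were seen, had 18.7 and 18.9 CPM in the libraries labelled DKO, against 1.29 and 0.598 CPM in H2A.Z controls, and 7.25 and 7.70 CPM in Mll2 KO, against 0.992 and 0.594 CPM in Mll2 WT. The theca marker Cyp11a1 had 20.6 and 19.4 CPM in the libraries labelled DKO, against 9.05 and 12.2 CPM in H2A.Z controls. It showed no such rise in Mll2 KO, with 6.47 and 4.87 CPM against 6.38 and 6.73 CPM in Mll2 WT. Of 10 theca and stroma markers 4 were tested. The H2A.Z line had 1 of these called higher and 0 lower, and the Mll2 line had 1 called in each direction. Beside the shares over all genes, 4 markers are too few to speak for these cells. The granulosa marker Amh was at 0 in the libraries labelled DKO, Mll2 KO and Mll2 WT. Shifts of some markers, not always the same ones, accompany every mutant comparison given for the methyltransferase genes. The part of other cells in these shifts was not tested. In bulk RNA of pooled cells, fewer cells that carry a transcript and less of it per cell cannot be told apart.

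Levels between genes were compared as CPM per kb of the longest GENCODE M21 transcript. Kmt2c, which encodes the enhancer methyltransferase MLL3, had the highest level of the family in each of the 4 groups. It averaged 8.07 ± 0.502 CPM per kb in the libraries labelled DKO and 7.74 ± 0.349 in H2A.Z controls, and 17.2 ± 2.55 in Mll2 KO and 19.9 ± 0.0146 in Mll2 WT (SD, n = 2 each). Kmt2a had the lowest level in each group, with 0.196 ± 0.0694 CPM per kb in the libraries labelled DKO and 0.0580 ± 0.0377 in H2A.Z controls, and 0.00715 ± 0.00143 in Mll2 KO and 0.0140 ± 0.00281 in Mll2 WT (SD, n = 2 each). The Mll2 KO value of Kmt2a rests on 3 and 4 counts and that of Mll2 WT on 6 and 8 counts.

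In the libraries labelled DKO, Kmt2c was followed by Setd1a at 3.15, Kmt2d at 2.72, Kmt2b at 2.42, Kmt2e at 1.62 and Setd1b at 1.21 CPM per kb, and the libraries of neighbouring genes did not overlap. In H2A.Z controls the order after Kmt2c was Kmt2d at 1.91, Kmt2b at 1.72, Setd1a at 1.70, Kmt2e at 1.24 and Setd1b at 0.570 CPM per kb. Kmt2b and Setd1a overlapped there, and Kmt2d and Kmt2b stood apart by less than their SDs. Setd1a thus held a higher place in the libraries labelled DKO than in their controls. In Mll2 KO the order after Kmt2c was Setd1a at 6.01, Kmt2d at 4.46, Kmt2e at 1.61, Setd1b at 1.47 and Kmt2b at 1.06 CPM per kb, with overlap between Setd1a and Kmt2d and between Kmt2e and Setd1b. In Mll2 WT it was Kmt2b at 4.98, Setd1a at 4.76, Kmt2d at 4.23, Kmt2e at 1.91 and Setd1b at 1.16 CPM per kb, and neither Kmt2b and Setd1a nor Setd1a and Kmt2d were separate. In Mll2 WT oocytes Kmt2b therefore shared the places below Kmt2c with Setd1a and Kmt2d, while in Mll2 KO oocytes it stood below every other member except Kmt2a. With the length of all exons, or of the coding sequence, Kmt2c stayed first and Kmt2a last.

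**Figure D1:**
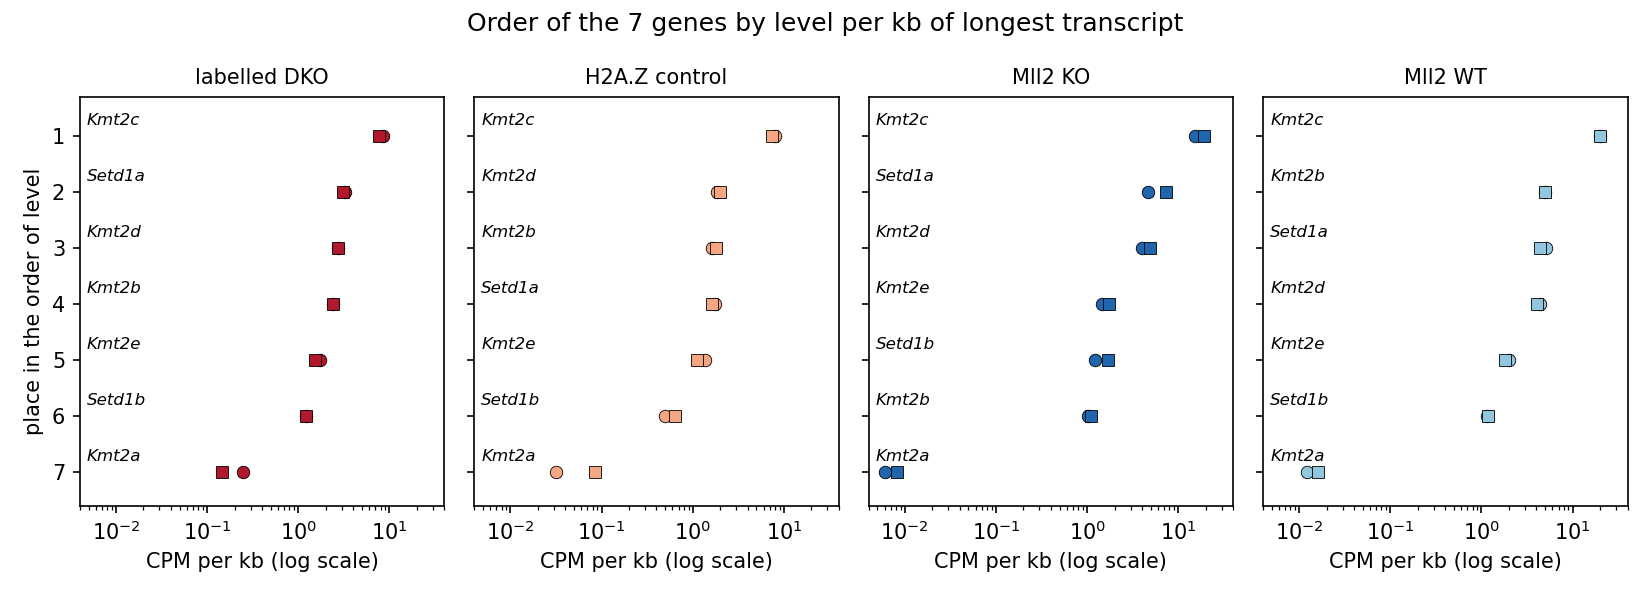
Level of each gene in CPM per kb of longest transcript (log scale, x axis) by its place in the order within a group (y axis), with circles for replicate 1 and squares for replicate 2. Kmt2c is first and Kmt2a last in all 4 panels, and Kmt2b, in place 2 in Mll2 WT, is in place 6 in Mll2 KO.

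Loss of Mll2 was read first in its own gene. Kmt2b (chromosome 7, 30568858 to 30588726, minus strand, mm10) stood at 8.73 and 9.28 CPM in Mll2 KO, against 41.9 and 42.4 CPM in Mll2 WT. The groups were far apart, and the 2 libraries of each group were close. Kmt2b thus fell by 2.23 ± 0.15 on the log2 scale (SE; adjusted p = 2.72e-08, edgeR), to 21.4% of its Mll2 WT level. Gene-level counts do not show which exons gave the RNA that remained. Kmt2d, the other gene called Mll2 in the past, had 80.0 and 96.9 CPM in Mll2 KO, against 87.6 and 80.0 CPM in Mll2 WT, and the groups overlapped. Its log2 fold change was 0.08 ± 0.12 (adjusted p = 0.652, 95% interval -0.17 to 0.33).

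**Figure D2:**
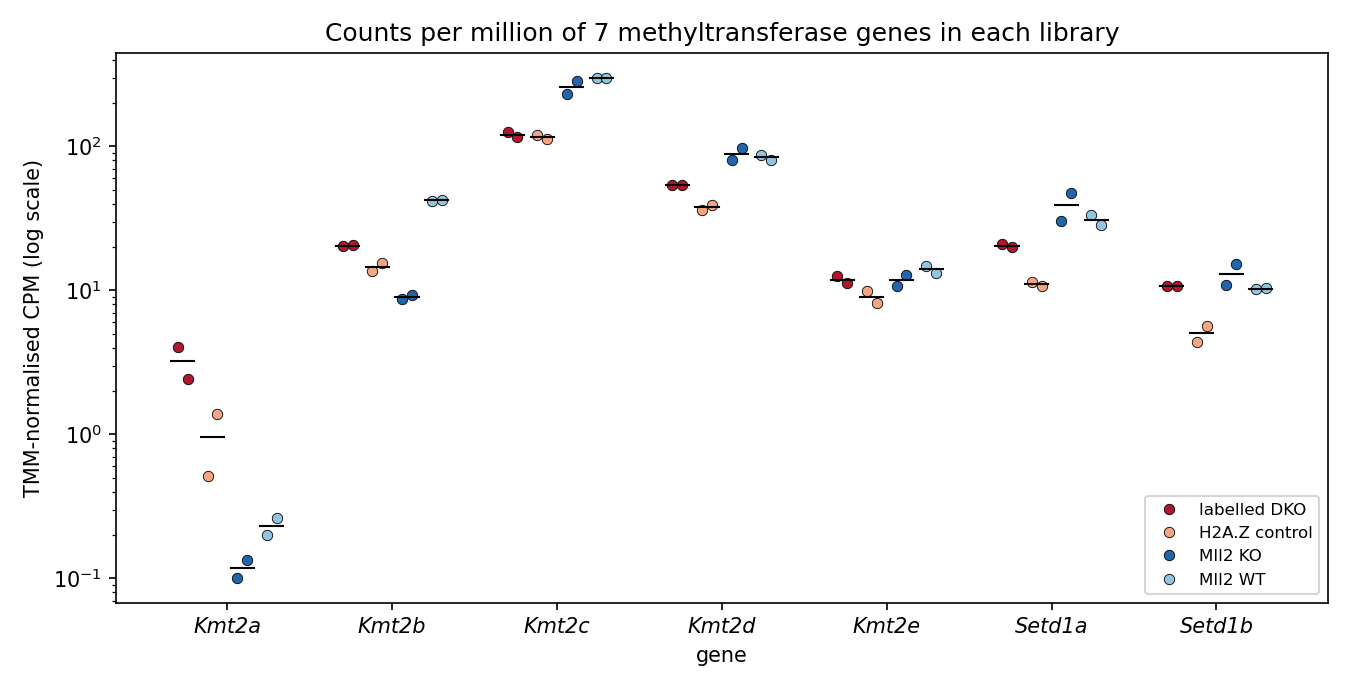
TMM-normalised CPM (log scale, y axis) of each gene (x axis) in each library, with a bar at the group mean (n = 2). Kmt2b in Mll2 KO lies at 8.73 and 9.28 CPM, far below 41.9 and 42.4 CPM in Mll2 WT, and the libraries labelled DKO lie above H2A.Z controls for 6 genes, all but Kmt2c.

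Of the 7 genes 1 was called lower in Mll2 KO than in Mll2 WT, Kmt2b, and 0 higher, at an adjusted p under 0.05 in edgeR. DESeq2 gave the same counts, as did an unadjusted p under 0.05. Over all tested genes 30.6% were called there, 16.2% lower and 14.4% higher. The median log2 fold change was -0.21 over the 7 genes and 0.02 over all tested genes. Kmt2a, the closest relative of Kmt2b (chromosome 9, 44803355 to 44881296, minus strand), had 0.101 and 0.134 CPM in Mll2 KO, against 0.198 and 0.264 CPM in Mll2 WT. These are 7 counts against 14, a ratio of 0.510 with an exact 95% interval of 0.174 to 1.35 that covers counting error only. No difference of Kmt2a was detectable at this depth.

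The 4 remaining genes were read for a change that would accompany the loss of Kmt2b. Kmt2c (chromosome 5, 25271798 to 25498783, minus strand) had 231 and 285 CPM in Mll2 KO, against 298 and 299 CPM in Mll2 WT, with a log2 fold change of -0.21 ± 0.11 (adjusted p = 0.167, 95% interval -0.44 to 0.03). Both Mll2 KO libraries lay below both Mll2 WT libraries, by unequal distances. Kmt2e (chromosome 5, 23434441 to 23504235, plus strand) had 10.7 and 12.9 CPM in Mll2 KO, against 14.7 and 13.3 CPM in Mll2 WT, with a log2 fold change of -0.25 ± 0.18 (adjusted p = 0.312, 95% interval -0.62 to 0.13). Setd1a (chromosome 7, 127776670 to 127800122, plus strand) had 30.5 and 47.5 CPM in Mll2 KO, against 33.2 and 28.6 CPM in Mll2 WT. The groups overlapped, and the log2 fold change was 0.34 ± 0.18 (adjusted p = 0.161, 95% interval -0.04 to 0.71). Setd1b (chromosome 5, 123142193 to 123168629, plus strand) had 10.8 and 15.2 CPM in Mll2 KO, against 10.2 and 10.4 CPM in Mll2 WT, and both Mll2 KO libraries were the higher. Its log2 fold change was 0.34 ± 0.20 (adjusted p = 0.211, 95% interval -0.08 to 0.76).

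Both SETD1 values depended on 1 library. All 7 genes were higher in the second Mll2 KO library than in the first, and these libraries differed from each other more than those of any other group, with a chi-square per degree of freedom of 36.8 over genes against 4.67 to 12.2. Without the first Mll2 KO library, Setd1a (log2 fold change 0.63, adjusted p = 0.000633) and Setd1b (0.57, adjusted p = 0.0198) were called higher. Without the second, Setd1a stood at -0.06 and Setd1b at 0.03, neither called, Kmt2d stood at -0.11, and Kmt2c was called lower (log2 fold change -0.41, adjusted p = 0.0013).

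In the H2A.Z line, 5 of the 7 genes were higher in the libraries labelled DKO than in H2A.Z controls and 0 were lower by edgeR. DESeq2 also called 5 higher and 0 lower, and an unadjusted p under 0.05 gave 6 higher and 0 lower. Over all tested genes 30.9% were called, 19.4% higher and 11.5% lower. The median log2 fold change was 0.51 over the 7 genes and 0.12 over all tested genes. With library totals in place of TMM factors, the median of all genes moved by -0.12 in this comparison, and the higher share of all calls was 45.5% in place of 62.9%. In Mll2 KO against Mll2 WT that scaling moved the median by 0.12, and the higher share was 62.9% in place of 47.1%. Under that scaling 4 of the 7 genes were called higher in the libraries labelled DKO.

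Setd1b and Setd1a, which encode the catalytic subunits of the promoter H3K4me3 complexes, had the steadiest differences. Setd1b had 10.8 and 10.7 CPM in the libraries labelled DKO, against 4.39 and 5.70 CPM in H2A.Z controls. It was higher by 1.08 ± 0.22 on the log2 scale (adjusted p = 0.00152), a fold of 2.11. Setd1a had 20.98 and 19.9 CPM in the libraries labelled DKO, against 11.4 and 10.6 CPM in H2A.Z controls. It was higher by 0.89 ± 0.19 (adjusted p = 0.00253). Both calls held in each of 15 alternative fits. In GENCODE M21, Setd1a shares 3523 of its 6795 exon bases with the readthrough gene Gm49388, which has no values of its own here, so its reads may not all be its own.

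The MLL1 and MLL2 genes were also higher in the libraries labelled DKO. Kmt2a had 4.04 and 2.42 CPM there, against 0.517 and 1.39 CPM in H2A.Z controls, and the groups did not overlap. It was higher by 1.72 ± 0.46 on the log2 scale (adjusted p = 0.0103), and the pooled counts of 142 against 45 gave a ratio of 3.22 (exact 95% interval 2.28 to 4.6, counting error only). Kmt2a passed the filter on low counts through the libraries of the H2A.Z line alone. The call was lost without the first DKO-labelled library (log2 fold change 1.31, adjusted p = 0.154) or the first H2A.Z control (1.21, adjusted p = 0.121), and without the second H2A.Z control the value was 2.63. Kmt2b had 20.4 and 20.6 CPM in the libraries labelled DKO, against 13.7 and 15.4 CPM in H2A.Z controls, a difference of 0.49 ± 0.15 (adjusted p = 0.0180). That call was lost without any 1 of the 4 H2A.Z-line libraries (adjusted p 0.0601 to 0.153), without the second Mll2 WT library (adjusted p = 0.132) and with library totals alone (adjusted p = 0.0872).

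For the enhancer methyltransferases, Kmt2d passed the test and Kmt2c did not, and the difference between them was not tested. Kmt2d (chromosome 15, 98831669 to 98871204, minus strand) had 54.1 and 53.8 CPM in the libraries labelled DKO, against 36.3 and 39.5 CPM in H2A.Z controls. It was higher by 0.51 ± 0.12 on the log2 scale (adjusted p = 0.00565), and the call was lost without the first H2A.Z control (adjusted p = 0.0710) or the second Mll2 WT library (adjusted p = 0.0532). Kmt2c had 126.1 and 115.5 CPM in the libraries labelled DKO, against 119.5 and 112.1 CPM in H2A.Z controls, and the groups overlapped. Its log2 fold change was 0.06 ± 0.11 (adjusted p = 0.720, 95% interval -0.18 to 0.30), with a negative sign under library totals. Kmt2e had 12.5 and 11.2 CPM in the libraries labelled DKO, against 9.88 and 8.21 CPM in H2A.Z controls, and did not pass the test at a log2 fold change of 0.40 ± 0.19 (adjusted p = 0.118, 95% interval 0.00378 to 0.79).

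**Figure D3:**
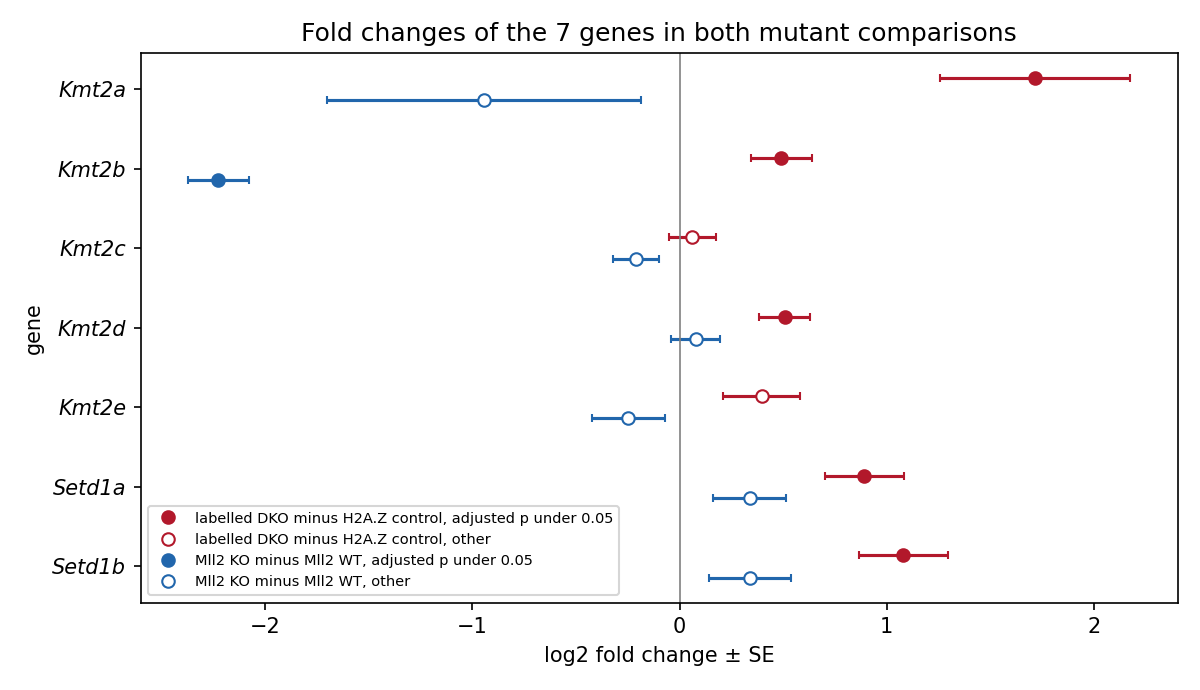
Log2 fold change ± SE (x axis) of each gene (y axis) in both mutant comparisons, with filled points where the adjusted p was under 0.05. In the H2A.Z line 5 points are filled, all to the right of 0, and in the Mll2 line Kmt2b alone is filled, at -2.23.

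These transcripts are long. Of 14638 tested genes with a known length, 6 of the 7 members were in the longest of 10 equal bins (6654 bases or more) and Setd1a, at 6487 bases, was in bin 9. Kmt2d had the longest transcript of the family, at 19823 bases. The longest bin of all genes had a median log2 fold change of 0.21 in the libraries labelled DKO against H2A.Z controls, with 24.4% called higher and 8.2% lower. The shortest bin was nearly as high, at 0.18 with 23.1% called higher and 9.56% lower, and bin 4 was the lowest at 0.03. In Mll2 KO against Mll2 WT the median of the longest bin was -0.02. With an offset that takes out the trend with length, Setd1a (0.73, adjusted p = 0.00596), Setd1b (0.90, adjusted p = 0.00447) and Kmt2a (1.5, adjusted p = 0.0251) were still called higher in the libraries labelled DKO. Kmt2b (0.32, adjusted p = 0.0979) and Kmt2d (0.30, adjusted p = 0.0594) were not, and Kmt2c stood at -0.14, not called. In Mll2 KO, Kmt2b was at -2.21 with the offset.

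**Figure D4:**
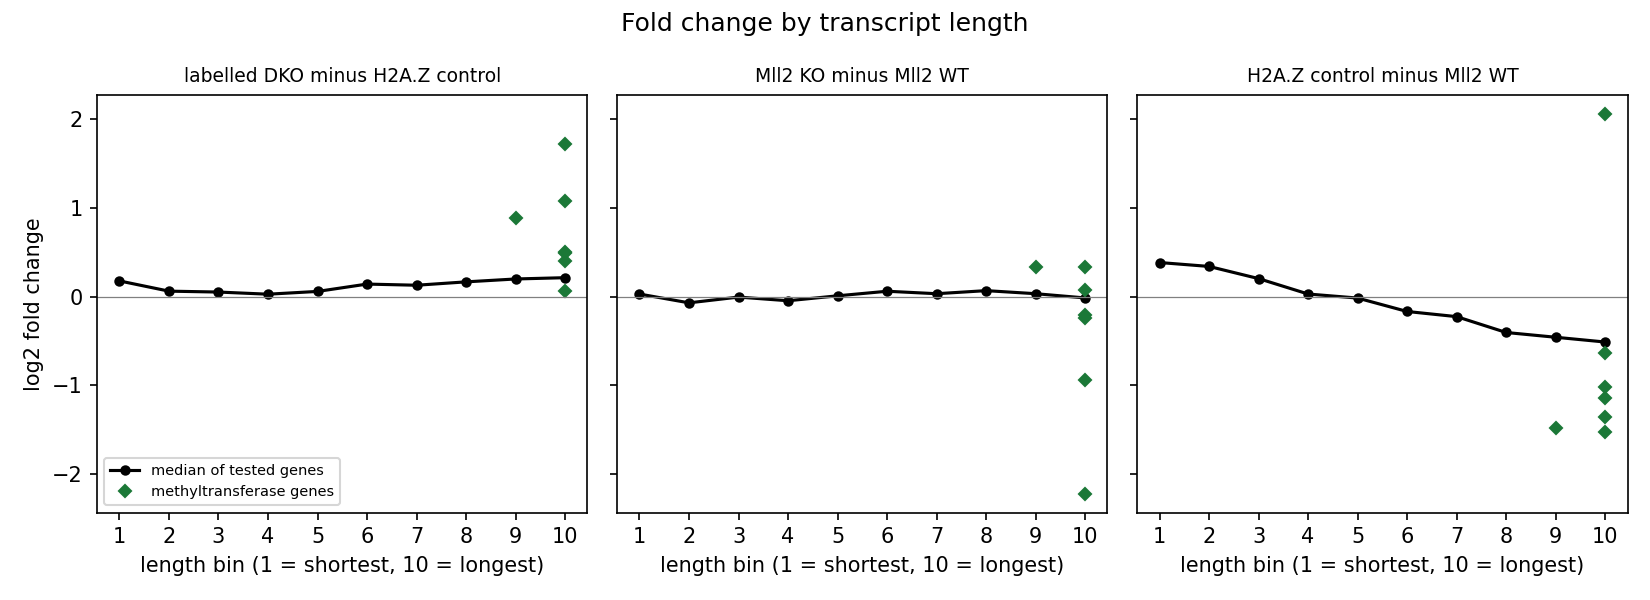
Median log2 fold change of tested genes (line) by bin of transcript length (x axis, 1 shortest of 10) and the 7 genes (diamonds) in 3 comparisons. The line reaches 0.21 in bin 10 for the libraries labelled DKO against H2A.Z controls and -0.51 for H2A.Z control against Mll2 WT.

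The effect of Mll2 KO minus that of the DKO label was tested in the same fit, with 19.5% of all genes called, 12.9% lower and 6.68% higher. Under library totals 63.0% of these calls were higher, in place of 34.2%. Kmt2b differed between the mutant effects by -2.72 ± 0.21 on the log2 scale (adjusted p = 4.78e-07). It is the gene targeted in Mll2 KO, so its fall there checks the label and is no result about the family. Kmt2a differed by -2.66 ± 0.89 (adjusted p = 0.0460), and that call was lost in 12 of 14 alternatives. Kmt2a passed the filter on low counts through the libraries of the H2A.Z line alone. The other 5 differences were not called. They were -0.74 ± 0.29 for Setd1b (adjusted p = 0.0874), -0.64 ± 0.26 for Kmt2e (0.0902), -0.55 ± 0.26 for Setd1a (0.149), -0.43 ± 0.17 for Kmt2d (0.0891) and -0.27 ± 0.16 for Kmt2c (0.251). The 95% intervals ran from -1.36 to -0.12 for Setd1b, -1.19 to -0.10 for Kmt2e, -1.11 to -0.00199 for Setd1a, -0.79 to -0.07 for Kmt2d and -0.61 to 0.07 for Kmt2c. All 5 were called lower when the second Mll2 KO library was left out (adjusted p 0.00301 to 0.0381). These values rest on the DKO label, which the targeted genes go against. With the labels of the H2A.Z groups exchanged, 4 of the 7 genes were called, beside 38.8% of all genes. Kmt2b then differed by -1.73, Setd1b by 1.42, Setd1a by 1.23 and Kmt2d by 0.59, while Kmt2a (0.77), Kmt2e (0.15) and Kmt2c (-0.15) were not called. The sign of Kmt2b held, and those of Setd1b, Setd1a, Kmt2d, Kmt2a and Kmt2e turned.

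The controls of the lines also differed as labelled. In H2A.Z controls against Mll2 WT, where 44.3% of all genes were called, 19% higher and 25.3% lower, the 6 genes other than Kmt2a were lower, with log2 fold changes of -1.53 for Kmt2b to -0.63 for Kmt2e. Mouse line and preparation cannot be told apart in this comparison. Its median log2 fold change was 0.38 in the shortest bin of transcripts and -0.51 in the longest, and with the length offset Kmt2b (-1.0), Kmt2c (-0.76), Kmt2d (-0.52) and Setd1a (-1.0) were still called lower, while Kmt2e (-0.13) and Setd1b (-0.48) were not. The Kmt2e call was also lost without the second H2A.Z control, without the first Mll2 WT library and with the replicate block. Kmt2a had 45 counts in H2A.Z controls and 14 in Mll2 WT, and passed the filter on low counts only through the H2A.Z line. With the labels of the H2A.Z groups exchanged, Setd1b stood at 0.06 and Kmt2e at -0.24, neither called, while Kmt2b (-1.04), Kmt2c (-1.30), Kmt2d (-0.64) and Setd1a (-0.59) were still lower.

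Summed over the 7 genes, the family stood at 249 and 234 CPM in the libraries labelled DKO and 196 and 193 CPM in H2A.Z controls, and at 372 and 467 CPM in Mll2 KO and 486 and 473 CPM in Mll2 WT. The sums of Mll2 KO lay below those of Mll2 WT, with 363 and 458 CPM against 444 and 431 CPM when Kmt2b was left out, where the groups overlapped. With library totals in place of TMM factors the sums overlapped with Kmt2b included, at 410 and 528 CPM in Mll2 KO and 507 and 477 CPM in Mll2 WT. Kmt2b gave 2.35% (Wilson 95% interval 2.08 to 2.65, counting error only, as for each share here) and 1.99% (1.77 to 2.23) of the family's counts in Mll2 KO, against 8.62% (8.18 to 9.09) and 8.95% (8.50 to 9.43) in Mll2 WT. In the H2A.Z line its share was 8.20% and 8.78% in the libraries labelled DKO, against 7.0% and 7.98% in H2A.Z controls. Kmt2c gave 49.3% to 63.1% of the family's counts in every library.

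The genes most like each member were those with the smallest root mean square difference in mean-centred log2 CPM over the 8 libraries, at a mean of 10 CPM or more. Kmt2b, whose lowest libraries were those of Mll2 KO, was nearest to Ccdc88a at 0.318, Tmem164 at 0.321, the aryl hydrocarbon receptor gene Ahr at 0.355, Armcx5 at 0.367 and Trim36 at 0.368. These differences exceeded the distance of 5 other members to their nearest gene, at 0.0360 for Kmt2d and Fbxo18, 0.0562 for Kmt2c and Atxn2, 0.0696 for Setd1a and Cdh4, 0.0700 for Kmt2e and Ptbp2, and 0.107 for Setd1b and Xpc. Kmt2a and its nearest gene Bre differed by 0.491. The members' own spread over the libraries, on the same scale, was 0.810 for Kmt2b and 1.61 for Kmt2a. For the others it was 0.250 for Kmt2e to 0.700 for Setd1a, and the distances were not scaled to it. Among the members themselves Kmt2d and Setd1a were closest, at 0.231, and Kmt2a was at 1.70 or more from each of the others. All of these are descriptions over 8 libraries of 2 lines, which share the difference between the lines.

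The rest of the H3K4 pathway was read in 7 lists of 40 genes, of which 37 were tested. In the libraries labelled DKO 10 were called higher and 5 lower than in H2A.Z controls, with a median log2 fold change of 0.18 against 0.12 over all genes. In Mll2 KO 4 were called higher and 4 lower than in Mll2 WT, with a median of 0.04 against 0.02 over all genes. The share called was 15 of 37 in the H2A.Z line and 8 of 37 in the Mll2 line, beside 30.9% and 30.6% of all genes. With library totals alone the DKO-label calls of Wdr5, Bod1l, Pagr1a, Spin1 and Phf8 and the Mll2 KO call of Psip1 were lost. Relative log expression factors ended the DKO-label calls of Wdr5, Bod1l and Pagr1a, and the length offset those of Bod1l, Phf8 and Spin1. DESeq2 did not call Bod1l, Pagr1a or Phf8 in the H2A.Z line, and with the replicate block the DKO-label calls of Tasp1, Men1 and Spin1 were lost. With each line fitted alone, the Mll2 KO calls of Psip1, Pagr1a, Smyd3, Phf13 and Phf2 and the DKO-label call of Pagr1a were lost.

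The libraries labelled DKO had 2 of the 4 shared core subunits higher and 1 lower, beside 19.4% higher and 11.5% lower over all genes. Dpy30, which stimulates the catalytic core, had 715 and 763 CPM there, against 511 and 504 CPM in H2A.Z controls, and was higher by 0.54 ± 0.10 on the log2 scale (adjusted p = 0.00074). Its call held in all 15 alternatives. Wdr5, the subunit that holds the SET-domain protein to the core, was higher by 0.58 ± 0.18 (adjusted p = 0.0292), and Ash2l, which with Rbbp5 activates the SET domain, was lower by -0.45 ± 0.11 (adjusted p = 0.00784). The Wdr5 call was lost without any 1 of the 4 H2A.Z-line libraries or the second Mll2 WT library, and the Ash2l call without the second DKO-labelled library or either control. In Mll2 KO 0 of the 4 were called by edgeR or DESeq2, and 1 had an unadjusted p under 0.05. Log2 fold changes there ran from 0.03 for Rbbp5 to 0.39 for Wdr5. Of all genes 30.6% were called in Mll2 KO, and 4 genes are too few to speak for the core.

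Among the 5 MLL1 and MLL2 partners, the libraries labelled DKO had 1 higher and 2 lower, and Mll2 KO had 2 lower. All tested genes had 19.4% higher and 11.5% lower in the H2A.Z line, and 16.2% lower in Mll2 KO. The 5 genes are too few to speak for the branch. Tasp1, the protease that cleaves MLL1 and MLL2, had 4.99 and 3.26 CPM in Mll2 KO, against 7.80 and 9.93 CPM in Mll2 WT. It was lower there by -1.10 ± 0.23 on the log2 scale (adjusted p = 0.00197), a call that held in all 15 alternatives. In the H2A.Z line Tasp1 had 10.7 and 9.26 CPM in the libraries labelled DKO, against 16.4 and 13.7 CPM in H2A.Z controls, with a log2 fold change of -0.59 ± 0.22 (adjusted p = 0.0496). That call, and the one of Men1 (-0.46 ± 0.16, adjusted p = 0.0343), the menin gene, were lost without any 1 H2A.Z-line library or the first Mll2 WT library. Hcfc2, a host cell factor gene, was higher in the libraries labelled DKO by 0.55 ± 0.13 (adjusted p = 0.00381) in all 15 alternatives. Psip1, whose product LEDGF tethers menin and MLL to chromatin, was lower in Mll2 KO by -0.32 ± 0.09 (adjusted p = 0.0184), a call lost without either Mll2 WT library.

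Among SETD1 partners, the H2A.Z line had Wdr82 higher by 0.54 ± 0.14 on the log2 scale (adjusted p = 0.00941) and Bod1l higher by 0.36 ± 0.12 (adjusted p = 0.0316) in the libraries labelled DKO. Both calls were lost without the first DKO-labelled library, either H2A.Z control or the second Mll2 WT library. Cxxc1, which encodes the CpG-binding protein CFP1, was not called at 0.40 ± 0.18 (adjusted p = 0.0971), nor in Mll2 KO at 0.40 ± 0.16 (adjusted p = 0.0765). Beside 30.9% of all genes called in the H2A.Z line and 30.6% in the Mll2 line, lists this short cannot speak for a branch. Of the 4 MLL3 and MLL4 partners edgeR called Pagr1a alone, which DESeq2 called in Mll2 KO but not in the H2A.Z line. It was higher by 0.34 ± 0.12 in the libraries labelled DKO (adjusted p = 0.0485), lost without any 1 library of either line, and by 0.43 ± 0.12 in Mll2 KO (adjusted p = 0.0166), lost without the second Mll2 WT library.

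**Figure D5:**
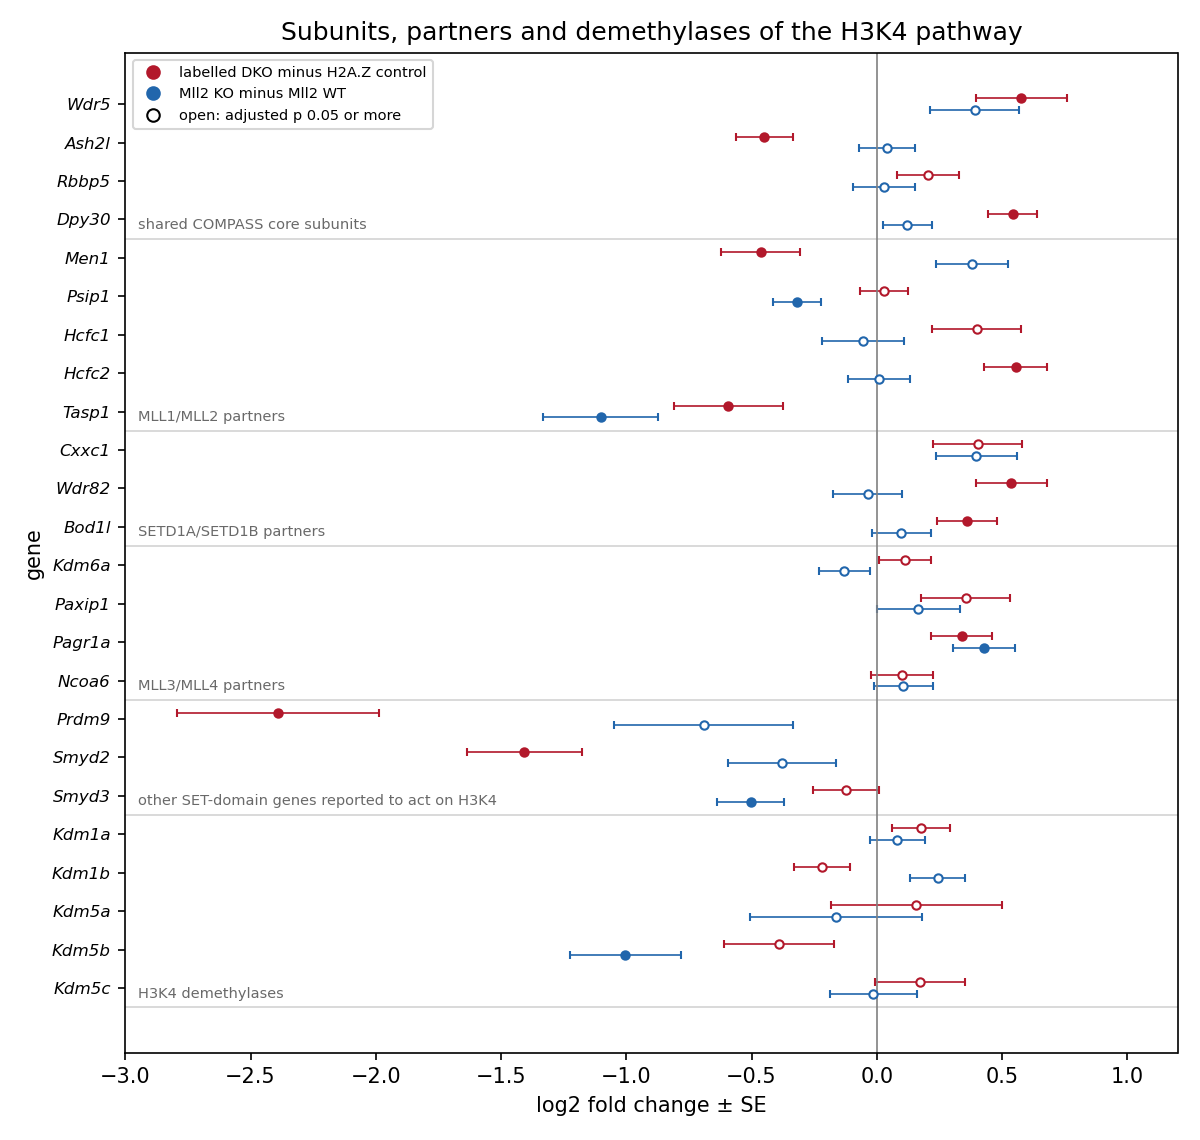
Log2 fold change ± SE (x axis) of core subunits, branch partners, other SET-domain genes and demethylases (y axis) in both mutant comparisons, with open points at an adjusted p of 0.05 or more. Prdm9 and Smyd2 lie farthest left in the libraries labelled DKO, at -2.39 and -1.41, and Tasp1 and Kdm5b in Mll2 KO, at -1.10 and -1.0.

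Of 5 other SET-domain genes reported to act on H3K4, 3 were tested. The libraries labelled DKO had 2 called lower and 0 higher, and Mll2 KO had 1 lower and 0 higher. Over all tested genes 11.5% and 16.2% were called lower in these comparisons, and 3 genes are too few to speak for the class. Prdm9, the meiotic methyltransferase that marks recombination hotspots, had 0.577 and 0.380 CPM in the libraries labelled DKO, against 2.74 and 2.35 CPM in H2A.Z controls, lower by -2.39 ± 0.40 on the log2 scale (adjusted p = 0.000429). Smyd2 had 4.48 and 2.94 CPM there, against 9.82 and 9.92 CPM in H2A.Z controls, lower by -1.41 ± 0.23 (adjusted p = 0.000354). Both calls held in all 15 alternatives, opposite in direction to Setd1a and Setd1b in the same libraries. In Mll2 KO Smyd3 alone of the 3 tested was called, lower by -0.50 ± 0.13 (adjusted p = 0.00997). That call was lost without the second Mll2 WT library and with each line fitted alone.

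Of the 5 H3K4 demethylases tested, 0 were called in the libraries labelled DKO by edgeR or DESeq2, and 0 at an unadjusted p under 0.05. In Mll2 KO 1 was called. The shares over all genes were 30.9% in the libraries labelled DKO and 30.6% in Mll2 KO, and 5 genes are too few to speak for the class. Kdm5b, which removes methyl groups from H3K4me3, had 5.60 and 3.70 CPM in Mll2 KO, against 8.86 and 9.79 CPM in Mll2 WT, lower by -1.0 ± 0.22 on the log2 scale (adjusted p = 0.0031) in all 15 alternatives. It moved in the same direction as Kmt2b.

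Of 13 readers of methylated H3K4, edgeR called 4 in the libraries labelled DKO and 3 in Mll2 KO, all of them higher and 0 lower. These shares of the list, 4 of 13 and 3 of 13, stand beside 30.9% and 30.6% called over all genes and are no result about the readers. DESeq2 called 3 higher and 0 lower in each, and an unadjusted p under 0.05 gave the same counts as edgeR. Ing1, a PHD-finger reader of H3K4me3, had 203 and 211 CPM in the libraries labelled DKO, against 151 and 154 CPM in H2A.Z controls (log2 fold change 0.44 ± 0.10, adjusted p = 0.00337). It had 264 and 291 CPM in Mll2 KO, against 195.4 and 195.1 CPM in Mll2 WT (0.51 ± 0.10, adjusted p = 0.00117). Both calls of Ing1 held in all 15 alternatives. Phf13 was called higher in both comparisons, by 0.63 ± 0.14 in the libraries labelled DKO (adjusted p = 0.0032) and 0.43 ± 0.13 in Mll2 KO (adjusted p = 0.0235). The calls were lost without the first DKO-labelled library in the H2A.Z line, and without the second Mll2 KO library or either Mll2 WT library in the Mll2 line. Spin1 (0.35 ± 0.11, adjusted p = 0.0217) and Phf8 (0.39 ± 0.12, adjusted p = 0.0232) were the other calls in the H2A.Z line. The Spin1 call was lost without any 1 H2A.Z-line library or the second Mll2 WT library, and the Phf8 call without either DKO-labelled library, the second H2A.Z control or the second Mll2 WT library. Phf2 was the other call in Mll2 KO (0.62 ± 0.20, adjusted p = 0.0282), lost without the second Mll2 KO library or either Mll2 WT library.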

How the data were processed

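RNA-seq values for 8 libraries of mouse full-grown oocytes were raw, unnormalised whole-number counts by gene symbol, as the authors deposited them. The submitters' processing notes name mm10, RSEM 1.3.1, STAR 2.7.3 and Trim Galore 0.6.4. No source used here gives the annotation, strand handling or any rounding, so multi-mapped reads and the overlap of Kmt2e with the opposite-strand gene Srpk2 (972 of 10444 exon bases) limit single genes. Totals were 20309233 to 30087863 counts, and 8787 symbols had none.

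Groups followed the labels, and no library was dropped. One edgeR 4.0.16 quasi-likelihood fit (R 4.3.3) took 4 group means, filterByExpr by group with a minimum count of 10, and TMM scaling. P-values were Benjamini-Hochberg adjusted over 16847 genes, with a threshold of 0.05, and a call means an adjusted p below it. SEs came from the F statistic. CPM are TMM-normalised, and log2 CPM used a prior count of 2. Residual degrees of freedom were 4, and prior ones had a median of 11.8. Lengths and coordinates came from GENCODE M21 and promoters from RefSeq. The script was tested on simulated data. All members are reported. Pathway genes named were called members (up to 4 a list) or members of lists of up to 5, likeness neighbours the nearest 5 for Kmt2b and 1 for each other member, leaving out predicted symbols. The members and lists were chosen with earlier results of these data known. Differences of replicate 1 from replicate 2 hardly correlated between the groups of a line (0.0395 and -0.0221), and the labels state no pairing. Alternatives were other scalings, no filter, each line alone, the replicate block, leaving out each library, DESeq2 1.42.0 and, added after the data were seen, an offset for transcript length and exchanged labels of the H2A.Z groups.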

Additional observations from a re-analysis of the deposited data

Results flagged for a closer look

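The effect of Mll2 KO differed from that of the DKO label in 2 of the 7 genes by a test of the difference itself, beside 19.5% of all genes, with the H2A.Z line read as labelled. Kmt2b differed by -2.72 on the log2 scale, being lower in Mll2 KO than in Mll2 WT and higher in the libraries labelled DKO than in H2A.Z controls. It is the gene targeted in Mll2 KO, so its fall there checks the label and is no result about the family. Kmt2a differed by -2.66, on counts of 7 against 14 in the Mll2 line and 142 against 45 in the H2A.Z line, and its call did not survive 12 of 14 alternatives. Kmt2a passed the filter on low counts through the libraries of the H2A.Z line alone. With the labels of the H2A.Z groups exchanged, Kmt2b differed by -1.73, Kmt2a by 0.77 and not called, and Setd1b by 1.42, Setd1a by 1.23 and Kmt2d by 0.59 were called. Of all genes 38.8% were called with that exchange.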

How the results depend on the processing

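Every alternative that was planned was run. The calls of Kmt2b in Mll2 KO, and of Setd1a and Setd1b in the libraries labelled DKO, held in each of 15 alternatives. Depth limits Kmt2a, with 3 to 8 counts a library in the Mll2 line. The cause of a change between fits was not tested. Adding the replicate block left the difference of the mutant effects of Kmt2a at -2.69 and not called, so 1 gene was called, and the block gave -0.51 for Kmt2e in H2A.Z control against Mll2 WT, not called. The labels do not say whether the replicate numbers pair libraries. The block changed no other call among the 7 genes, though it ended the DKO-label calls of the pathway genes Tasp1, Men1 and Spin1.

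The sign of Kmt2c in the libraries labelled DKO turned to -0.0599 with library totals, to -0.0631 with each line fitted alone and to -0.14 with the length offset. It was also -0.06 without either Mll2 KO library and -0.0613 without the second Mll2 WT library. In Mll2 KO, Kmt2d turned to -0.11 without the second Mll2 KO library and -0.000697 without the second Mll2 WT library, and Setd1a to -0.0558 without the second Mll2 KO library. The difference of the mutant effects of Kmt2c turned to 0.00679 without the first Mll2 KO library.

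For Kmt2a that difference was no longer called with relative log expression factors (-2.60), library totals (-2.41), the length offset (-2.39) or DESeq2 (-2.64), and under each of these, as under the block, 1 of the 7 genes was called in place of 2. In the libraries labelled DKO, Kmt2b stood at 0.37 with library totals and 0.32 with the length offset, Kmt2d at 0.30 with the offset, and 3 genes were called with it in place of 5. In H2A.Z control against Mll2 WT the offset gave -0.13 for Kmt2e and -0.48 for Setd1b. Fitting each line alone called 3 pathway genes in Mll2 KO in place of 8, and DESeq2 called 4 in place of 7 in the difference of effects. Exchanging the labels of the H2A.Z groups, an alternative added after the data were seen, called 6533 genes in place of 3291 in the difference of effects and 4 of the 7 in place of 2. It turned Kmt2a to 0.77, Kmt2d to 0.59, Kmt2e to 0.15, Setd1a to 1.23 and Setd1b to 1.42 there, and in H2A.Z control against Mll2 WT it gave -0.24 for Kmt2e and turned Setd1b to 0.0611. It is not counted among the 14 or 15 alternatives given for a gene. With library totals the family's summed CPM averaged 216 in the libraries labelled DKO, 189 in H2A.Z controls, 469 in Mll2 KO and 492 in Mll2 WT. Without Kmt2b they averaged 221 in the libraries labelled DKO, 179.8 in H2A.Z controls and 438 in Mll2 WT. By length of all exons, 5 of 7 genes kept their place in the order of levels in H2A.Z controls and Mll2 WT, and by coding length 5 of 7 did in H2A.Z controls, Mll2 KO and Mll2 WT.

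Leaving out 1 library at a time called 2642 to 6568 genes in the libraries labelled DKO in place of 5198, with 2 to 5 of the 7 genes and 6 to 17 pathway genes. The 4 lowest of these counts, 2642 to 3081, came without 1 H2A.Z-line library. It called 2681 to 6819 genes in Mll2 KO in place of 5158, with 1 to 3 of the 7 and 3 to 14 pathway genes, and 1639 to 4639 in the difference of effects in place of 3291, with 1 to 6 of the 7 and 0 to 11 pathway genes. Log2 ranges in the libraries labelled DKO were 1.21 to 2.63 for Kmt2a, 0.37 to 0.58 for Kmt2b, -0.06 to 0.12 for Kmt2c and 0.38 to 0.57 for Kmt2d. In Mll2 KO they were -0.41 to -0.0537 for Kmt2c, -0.11 to 0.22 for Kmt2d, -0.0558 to 0.63 for Setd1a and 0.0323 to 0.57 for Setd1b. For the difference of effects they were -3.58 to -2.16 for Kmt2a, -0.35 to 0.00679 for Kmt2c, -0.50 to -0.16 for Kmt2d, -0.79 to -0.39 for Kmt2e, -0.83 to -0.14 for Setd1a and -0.95 to -0.38 for Setd1b. In H2A.Z control against Mll2 WT they were 1.14 to 2.56 for Kmt2a and -0.78 to -0.51 for Kmt2e.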
